A study of Mus musculus with 12 samples.

Results

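Histone lysine methyltransferases, lysine demethylases and protein arginine methyltransferases were followed in mouse primordial germ cells (PGCs), from which eggs and sperm descend, and in the somatic cells of the same fetal gonads. The genes were taken by name: every measured gene whose symbol is Kdm, Kmt or Setd with a number and, where it has one, a letter, or Prmt with a number, apart from the sex-linked Kdm5c, Kdm5d and Kdm6a. This gave 34 of the 12845 genes in the deposited tables. They are 13 Kdm genes, 5 Kmt2 genes, 9 Setd genes and 7 Prmt genes. Measured values played no part in the choice, but each of them had passed the authors' own filter on low expression, and genes of these families that are not in the tables were not analysed here. Setd8 is now named Kmt5a and Prmt10 is now named Prmt9. The older names are kept.

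The study measured RNA in 12 sequencing libraries of E13.5 gonads, 3 from each of 4 groups, PGC and soma of males and PGC and soma of females. All embryos were of the Oct4GFPxICR background and carried a green fluorescent protein reporter that marks germ cells (Oct4 is the product of Pou5f1). Flow cytometry split each gonad type into reporter-positive PGCs and reporter-negative soma, so the soma is a mixture of supporting, interstitial, endothelial and blood cells. An amount of ERCC spike-in RNA set by the count of sorted cells was added, which allows transcripts to be given per cell as well as per read.

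Histone methyltransferases place methyl groups on lysine or arginine residues and demethylases take them away. Methylation of histone H3 at lysine 4 marks promoters and enhancers, at lysine 36 the bodies of transcribed genes, and at lysines 9 and 27 repressed chromatin. Arginine methyltransferases act on histones and also on many RNA-binding and splicing proteins. Around this stage germ cells have lost most of their DNA methylation and pass through a wide rebuilding of chromatin, while female PGCs enter meiosis and male PGCs stop dividing.

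Library depth ran from 6454322 reads (female PGC replicate 2) to 24791414 reads (male soma replicate 2). Levels are given in CPM, a gene's reads scaled to the total reads of the table in that library. The sorted fractions carried the marker genes of their labels. The 8 germ cell markers summed to between 4679 and 5024 CPM in male PGCs and between 3576 and 3790 CPM in female PGCs, against 10.5 to 18.2 CPM in male soma and 17.3 to 174 CPM in female soma. Female soma replicates 1 and 2 held 2.92% and 4.69% of the female PGC level, against 0.467% in replicate 3. Male PGC replicate 1 held 122 CPM of Sertoli cell markers, against 59.4 and 54.2 CPM in the other two and 658 to 770 CPM in male soma. Calls lost without these 3 libraries are given with the comparisons below. Female PGC replicate 2 held 37.3 CPM of 6 gonadal soma markers, against 7.34 and 5.64 CPM in the other two and 1131 to 1842 CPM in female soma. It is not among the 3, and calls lost without it are also given. The 6 pregranulosa markers summed to 42.1 to 63.7 CPM in female PGCs, against 453 to 548 CPM in female soma. In males they summed to 16.4 to 22.7 CPM in PGCs and 159.4 to 212.5 CPM in soma. The 3 libraries are therefore not the only ones with reads of markers of another fraction. Blood cells were part of the soma: 6 erythroid markers summed to between 17590 and 29540 CPM in female soma, 3383 to 8578 CPM in male soma and at most 9.94 CPM in any PGC library, with Hbb-bh1 at 0 in all female PGC libraries.

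Most of these enzymes took a larger share of the transcripts in PGCs than in soma. In the table normalized to read depth, 24 of the 34 genes were higher and 10 lower in PGCs when averaged over the sexes, at an adjusted p of 0.05 (limma, adjusted over all 12845 genes). Of all genes tested, 41.4% were higher and 45.3% lower. The median log2 change was 0.47 over the 34 genes and -0.04 over all genes. The PGC libraries lay above the soma libraries without overlap in both sexes for 19 of the 34 genes and below them for 7, against 29.6% and 34.1% of all genes, and all 34 calls kept their direction without the 3 libraries named above. The 4 groups hold different mixtures of cells, and in such bulk samples fewer cells of a type and less RNA per cell cannot be told apart.

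The sexes shared most of these directions. In males 24 genes were higher and 8 lower, against 39.1% and 43.7% of all genes, and in females 19 were higher and 10 lower, against 38.7% and 42.3%. The genes called higher in both sexes numbered 18: Kdm1a, Kdm1b, Kdm2a, Kdm2b, Kdm3b, Kdm5a, Kdm5b, Kmt2a, Kmt2b, Kmt2c, Prmt3, Prmt7, Prmt10, Setd1a, Setd3, Setd4, Setd5 and Setd6. Those called lower in both numbered 7: Kdm4a, Kdm4b, Kdm6b, Kmt2e, Prmt2, Setd1b and Setd8. The share of all genes called alike in both sexes is not given here, so this agreement is not set apart from that of other genes. Prmt1 and Setd7 were called in opposite directions, higher in male PGCs and lower in female PGCs. A log2 change in this table understates the ratio of reads: over the 34 genes its values moved by a median of 0.78 (0.63 to 0.93) for each log2 unit of reads, so the CPM are given beside it.

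**Figure D1:**
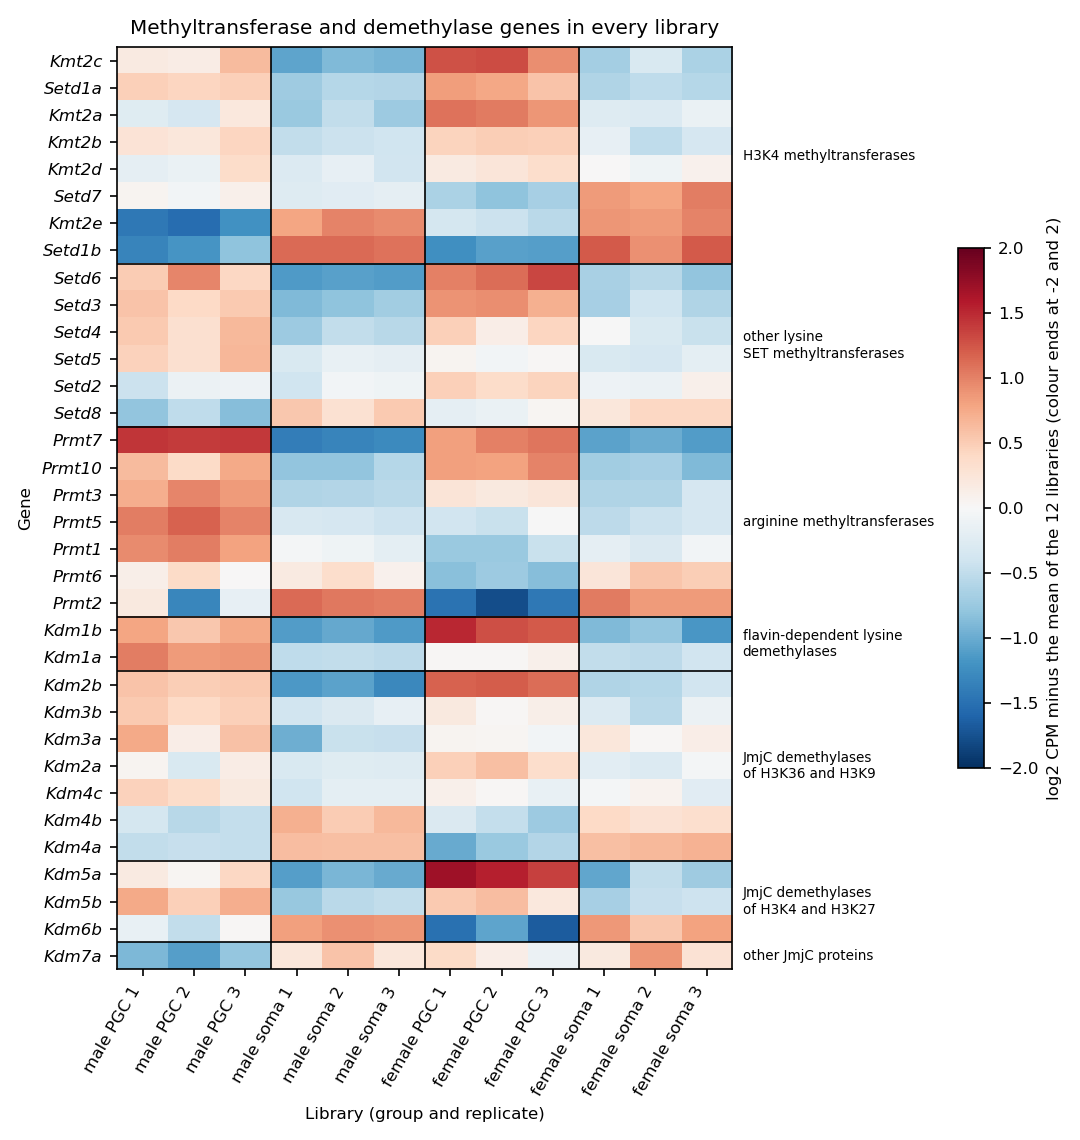
Log2 CPM of the 34 genes (rows, grouped by role) in each of the 12 libraries (columns), minus the gene's mean over all libraries, with red above and blue below that mean and the colour ending at -2 and 2. Prmt7 and Kdm1b are red in all 6 PGC libraries and blue in all 6 soma libraries, Setd1b shows the reverse, and Prmt1 and Prmt5 are red in the 3 male PGC libraries alone.

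The 7 arginine methyltransferases with a Prmt symbol separated the 2 kinds of germ cell. Of the 7 genes, 6 were lower in female than in male PGCs and none was higher (limma, adjusted p under 0.05), where 32.5% of all genes were lower and 32.8% higher. The median change over the 7 genes was -0.80 on the log2 scale, against 0.01 over all genes. Between female and male soma 0 of the 7 were called, where 13.3% of all genes were higher and 11.0% lower. The count of 6 lower and 0 higher was the same after median centring, after quantile normalization and with voom on the reads. The list of other arginine methyltransferases below gave 0 higher and 0 lower among 3 measured between the PGCs, and 1 higher after quantile normalization. On that list Carm1 was at 177 CPM in male and 206 CPM in female PGCs.

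Prmt1 (chromosome 7, 44975989 to 44986568, minus strand, GRCm38) encodes the enzyme that makes most of the asymmetric dimethylarginine in mammalian cells. Per kb of exon it was the highest of the 34 genes, at 75.7 CPM per kb over all libraries. It stood at 459, 481 and 415 CPM in the male PGC libraries and at 143, 142 and 174 CPM in female PGCs. Male soma held 231, 225 and 207 CPM and female soma 211, 194 and 230 CPM. All male PGC libraries therefore lay above all soma libraries and all female PGC libraries below them. Female PGCs had 2.95-fold fewer CPM than male PGCs, with a log2 change of -1.37 ± 0.08 (SE; limma, adjusted p = 8.7e-09). The change from soma was 0.93 ± 0.08 in males and -0.37 ± 0.08 in females (adjusted p = 0.00067 in limma), and after median centring, which raised the median change of all genes (mean of both sexes) from -0.04 to 0.18, the female value was -0.16 with an adjusted p of 0.072 in limma.

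Prmt5 (chromosome 14, 54507187 to 54517525, minus strand) encodes the main enzyme for symmetric dimethylation of arginine, which in mouse PGCs is known to act with the transcriptional repressor Blimp1. Its values were 244, 274 and 239 CPM in male PGCs, 92.5, 88.3 and 120 CPM in female PGCs, 96.4, 95.6 and 90.8 CPM in male soma and 84.2, 89.4 and 95.0 CPM in female soma. Only the male PGC libraries stood apart, and the female PGC libraries overlapped with both kinds of soma. Male PGCs were above male soma by 1.22 ± 0.08 on the log2 scale (limma, adjusted p = 7.3e-09), and the change in females was 0.12 ± 0.08 (limma, adjusted p = 0.21). The difference between female and male PGCs was -1.18 ± 0.08, or 2.52-fold fewer CPM in females (limma, adjusted p = 5.3e-08).

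Prmt7 (chromosome 8, 106210936 to 106252794, plus strand), which places single methyl groups on arginine, had the largest rise of all 34 genes. It was at 227, 223 and 226 CPM in male PGCs and 149, 170 and 178 CPM in female PGCs, against 32.2, 33.9 and 35.0 CPM in male soma and 40.0, 42.2 and 38.9 CPM in female soma. PGCs of both sexes were far above soma, with male PGCs on top. The log2 change was 1.91 ± 0.05 averaged over the sexes (limma, adjusted p = 1.6e-13), with 6.68-fold more CPM in males and 4.09-fold more in females.

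Prmt2 (chromosome 10, 76207222 to 76237865, minus strand), a weakly active family member known as a coactivator of nuclear receptors, went the other way. Its values were 31.0, 11.0 and 24.1 CPM in male PGCs, 9.71, 7.90 and 10.04 CPM in female PGCs, 59.2, 56.3 and 55.2 CPM in male soma and 55.6, 49.1 and 48.7 CPM in female soma. Soma was above PGCs in every library, and the male PGC libraries scattered widely. PGCs were lower by -1.37 ± 0.14 on the log2 scale averaged over the sexes (limma, adjusted p = 2.6e-07), and female PGCs were below male PGCs by -0.87 ± 0.19 (limma, adjusted p = 0.0012). Male PGC replicate 1, the highest for Prmt2, also held the most Sertoli cell marker reads. Without that replicate the female minus male change was -0.65 (limma, adjusted p = 0.0057), and the part of the marker reads in it was not tested.

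The other 3 genes of the family showed each of the remaining patterns. Prmt3, which methylates a protein of the small ribosomal subunit, averaged 107 ± 9.46 CPM in male PGCs (SD, n = 3), 69.7 ± 1.45 in female PGCs, 39.7 ± 0.96 in male soma and 41.6 ± 4.54 in female soma. It was higher in PGCs of both sexes and lower in female than in male PGCs, by -0.59 ± 0.08. Prmt6, an enzyme for asymmetric dimethylation of histone H3, averaged 39.2 ± 5.25 CPM in male PGCs and 39.9 ± 3.88 in male soma, but 19.8 ± 0.973 in female PGCs and 46.7 ± 5.19 in female soma. Only the female germ cells were low. A further 23.4% of its exonic length is overlapped by a gene on the opposite strand, C130013H08Rik, and the sources used here do not give the strand setting of the counting. Prmt10, which methylates a splicing factor, was the one gene of the 7 not called between the sexes. It averaged 80.0 ± 10.2 CPM in male and 96.7 ± 7.24 in female PGCs, against 32.2 ± 2.73 and 31.5 ± 2.39 in soma.

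The promoters of Prmt1 and Prmt5 are shown because the 2 genes moved together between the germ cells, beside those of Prmt7, the largest rise, and of Kmt2c, the largest rise among the lysine 4 methyltransferases. Each is the RefSeq window of 250 bases before to 50 after an annotated start (build GRCm38.p6), on the strand of the gene and read 5′ to 3′. Capitals mark every match of the letters searched, on either strand, with overlapping matches merged: the E-box CACGTG, the GC box GGGCGG or its reverse CCGCCC, the CCAAT box or its reverse ATTGG, the NRF1 core TGCGCA, the cyclic AMP response element TGACGTCA and the TATA box TATAAA or its reverse TTTATA.
Prmt1, chr7:44986371-44986670, minus strand: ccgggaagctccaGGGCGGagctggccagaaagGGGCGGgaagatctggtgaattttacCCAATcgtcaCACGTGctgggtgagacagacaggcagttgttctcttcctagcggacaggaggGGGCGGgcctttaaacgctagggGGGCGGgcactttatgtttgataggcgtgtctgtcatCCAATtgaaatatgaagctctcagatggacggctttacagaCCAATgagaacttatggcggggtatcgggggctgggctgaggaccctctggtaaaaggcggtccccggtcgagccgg
Prmt5, chr14:54517421-54517720, minus strand: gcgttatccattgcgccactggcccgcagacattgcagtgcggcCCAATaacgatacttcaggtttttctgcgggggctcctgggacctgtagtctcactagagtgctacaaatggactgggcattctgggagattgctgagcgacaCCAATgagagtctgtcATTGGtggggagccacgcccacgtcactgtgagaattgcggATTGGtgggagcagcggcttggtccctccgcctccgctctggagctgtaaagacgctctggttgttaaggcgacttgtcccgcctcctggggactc
Prmt7, chr8:106210804-106211103, plus strand: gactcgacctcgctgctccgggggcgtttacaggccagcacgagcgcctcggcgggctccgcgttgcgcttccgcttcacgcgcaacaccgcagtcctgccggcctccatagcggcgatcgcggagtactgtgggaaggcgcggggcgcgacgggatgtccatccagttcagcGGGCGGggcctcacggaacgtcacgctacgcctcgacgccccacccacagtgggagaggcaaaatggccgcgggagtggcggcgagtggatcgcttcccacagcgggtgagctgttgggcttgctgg
Kmt2c, chr5:25498734-25499033, minus strand: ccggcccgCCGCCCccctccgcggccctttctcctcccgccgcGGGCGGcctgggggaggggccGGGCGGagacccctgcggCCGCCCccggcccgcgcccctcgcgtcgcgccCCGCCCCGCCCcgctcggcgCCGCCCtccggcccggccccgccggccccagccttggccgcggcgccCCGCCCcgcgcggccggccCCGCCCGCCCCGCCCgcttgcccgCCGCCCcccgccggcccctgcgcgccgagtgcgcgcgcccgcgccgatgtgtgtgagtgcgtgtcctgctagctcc

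The windows of Prmt1 and Prmt5 shared only the CCAAT box, with 3 matches in Prmt1 and 4 in Prmt5. Prmt1 also held 4 GC boxes and 1 E-box, where Prmt5 held none. Prmt7 had 1 GC box and Kmt2c 12, counted with overlaps. RefSeq windows were at hand for 26 of the 34 genes, 35 windows in all. The GC box was in 65.7% of them against 35.7% of 32851 mouse windows, the CCAAT box in 42.9% against 37.4%, and the NRF1 core in 25.7% against 7.76%. The TATA box was in 2.86% against 13.6%, the E-box in 8.57% against 7.15%, and the cyclic AMP response element in 2.86% against 1.79%. The windows held a median of 27 CpG dinucleotides, against 7 over all windows. The mouse windows were not limited to genes of the deposited tables, which had passed a filter on expression. A gene with several windows, such as Kdm2b with 4, was counted once for each. These shares therefore do not set the 34 genes apart from other expressed genes. A match of letters is a description of the window and not a bound site.

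The lysine 4 methyltransferases lay on both sides, as genes in general did. Of the 8 genes, 5 were higher and 3 lower in PGCs when averaged over the sexes, where 41.4% and 45.3% of all genes were. Kmt2a, Kmt2b, Kmt2c, Kmt2d and Setd1a rose, and Setd1b, Kmt2e and Setd7 fell. The fall of Setd7 came from females, and in males Setd7 was called higher in PGCs. The closest relatives within the group, Setd1a and Setd1b, which are the catalytic subunits of the SET1 complexes, lay on opposite sides.

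Setd1a (chromosome 7, 127776670 to 127800122, plus strand) had the third-highest level per kb of exon of the 34 genes. It held 341, 331 and 342 CPM in male PGCs and 439, 422 and 366 CPM in female PGCs, against 151, 166 and 164 CPM in male soma and 162, 173 and 165 CPM in female soma. Every PGC library was above every soma library, by 0.99 ± 0.04 on the log2 scale averaged over the sexes (limma, adjusted p = 3.4e-11). Reads over Setd1a are uncertain in part, since 52.3% of its exonic length is overlapped by other annotated genes, one of them (Gm49388) on the same strand.

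Setd1b (chromosome 5, 123142193 to 123168629, plus strand) showed the largest fall of the 34 genes. Male PGCs held 21.4, 23.5 and 30.5 CPM and female PGCs 22.9, 25.1 and 24.9 CPM, against 118, 117 and 114 CPM in male soma and 125, 101 and 124 CPM in female soma. The soma of both sexes was thus uniformly high and the germ cells of both sexes uniformly low. The log2 change was -1.66 ± 0.07 (limma, adjusted p = 2.2e-11), with 4.62-fold fewer CPM in males and 4.82-fold fewer in females. Female and male PGCs differed by -0.13 ± 0.10 (limma, adjusted p = 0.26).

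Kmt2c (chromosome 5, 25271798 to 25498783, minus strand), which encodes the catalytic subunit of an enhancer complex, was at 234, 229 and 321 CPM in male PGCs and 501, 507 and 394 CPM in female PGCs. Male soma held 99.4, 112 and 109 CPM and female soma 129, 166 and 133 CPM. The groups formed 3 steps without overlap, with soma lowest and female PGCs highest. Kmt2c rose by 1.23 ± 0.08 from soma to PGCs (limma, adjusted p = 1.6e-09) and was higher in female than in male PGCs by 0.57 ± 0.11 (limma, adjusted p = 0.00042). Its partner enzyme Kmt2d changed little, from 253 ± 19.0 CPM to 313 ± 68.1 CPM in males and from 306 ± 17.7 to 365 ± 24.0 CPM in females (SD, n = 3). Its call for the mean of both sexes, 0.26 ± 0.07, did not hold after quantile normalization.

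Kmt2a, the mixed-lineage leukaemia enzyme that maintains Hox gene expression, was at 221 ± 46.5 CPM in male PGCs and 475 ± 33.1 in female PGCs, against 152 ± 14.7 and 204 ± 10.4 in soma. Its rise from soma was larger in females, by 0.47 ± 0.14 on the log2 scale (limma, adjusted p = 0.01), a difference that was not called without the 3 libraries with markers of another fraction. Kmt2b, required in mouse oocytes for broad lysine 4 methylation, rose to like levels in both, 293 ± 22.3 CPM in male and 327 ± 6.84 in female PGCs. The change between them was 0.01 ± 0.07 (limma, adjusted p = 0.90).

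Kmt2e (chromosome 5, 23434441 to 23504235, plus strand) carries a SET domain but is known as a reader of methylated lysine 4 rather than as an active enzyme. It was at 39.5, 37.2 and 46.2 CPM in male PGCs and 83.9, 79.8 and 74.0 CPM in female PGCs, against 186, 213 and 207 CPM in male soma and 198, 193 and 213 CPM in female soma. Male and female soma were alike in range and the PGCs lay below them, the males lowest. The fall was -1.38 ± 0.05 averaged over the sexes (limma, adjusted p = 7.8e-12), and it was smaller in females by 0.64 ± 0.10 (limma, adjusted p = 0.00017).

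Setd7 (chromosome 3, 51515319 to 51560879, minus strand), which adds a single methyl group to lysine 4 and to many non-histone proteins, had the largest difference between the sexes in its change from soma. It held 44.6, 41.6 and 45.8 CPM in male PGCs and 35.8, 36.8 and 37.9 CPM in male soma. In females the order turned, with 27.7, 24.6 and 27.1 CPM in PGCs and 77.6, 74.1 and 86.8 CPM in soma. The 4 groups did not overlap, and both extremes were female. The change from soma was 0.28 ± 0.08 in males and -1.18 ± 0.08 in females, a difference of -1.46 ± 0.11 (limma, adjusted p = 1.8e-07). Setd7 was also the gene that differed most between the 2 kinds of soma, by 0.81 ± 0.08 (limma, adjusted p = 3.6e-06), 2.16-fold more CPM in female soma.

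**Figure D2:**
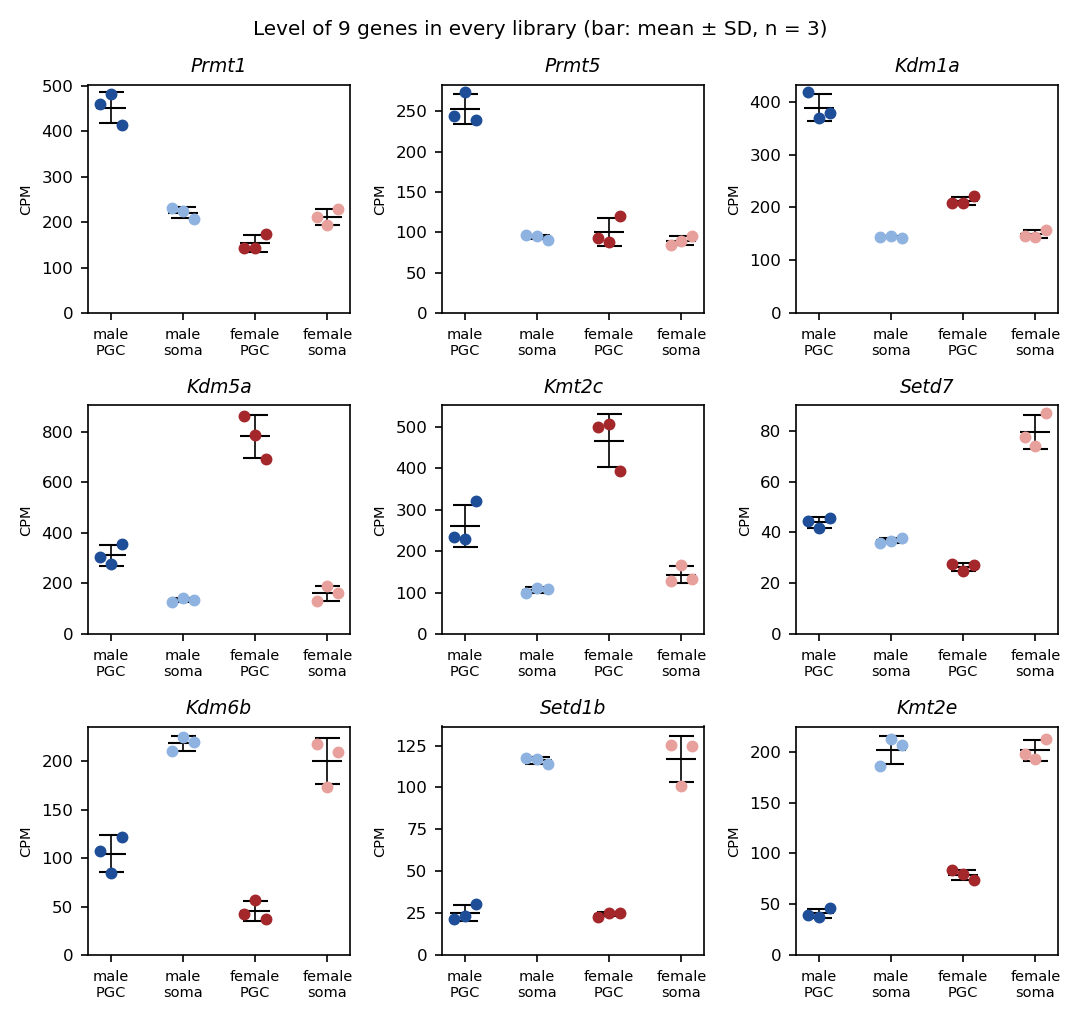
CPM of 9 genes in each library (points) by group, with the mean and SD of the 3 libraries (bars) and axes that start at 0. Prmt1, Prmt5 and Kdm1a are highest in male PGCs, Kdm5a and Kmt2c in female PGCs, and Setd7 in female soma, while Kdm6b, Setd1b and Kmt2e are higher in both kinds of soma than in either kind of PGC.

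Of the 6 other SET domain genes, 5 rose and Setd8 fell (all genes 41.4% and 45.3%). Setd6 (chromosome 8, 95715881 to 95719010, plus strand), which methylates a subunit of the transcription factor NF-kappaB, was at 32.9, 45.3 and 30.6 CPM in male PGCs and 46.5, 49.9 and 58.1 CPM in female PGCs, against 10.5, 10.9 and 10.7 CPM in male soma and 14.7, 15.6 and 13.3 CPM in female soma. The PGC libraries were above the soma libraries throughout, while male and female PGCs came close to each other. The log2 change was 1.29 ± 0.08 (limma, adjusted p = 1.5e-09). Its higher level in female than in male PGCs, 0.28 ± 0.11, was only just called (limma, adjusted p = 0.047) and was lost under most of the alternatives.

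Setd3, which methylates actin, rose by the same amount in both sexes, 1.11 ± 0.07 in males and 1.11 ± 0.07 in females. Setd2, the enzyme for trimethylation of lysine 36, was at 169 ± 20.2 CPM in male PGCs, 174 ± 21.9 in male soma and 191 ± 16.0 in female soma (SD, n = 3), and only female PGCs were higher, at 264 ± 10.4. Setd5, whose own enzymatic activity is disputed, averaged 550 ± 67.1 CPM in male and 395 ± 14.9 in female PGCs, with 340 ± 19.6 and 324 ± 16.2 in soma. It was lower in female than in male PGCs by -0.50 ± 0.07 (limma, adjusted p = 2.0e-05), and its female rise over soma, 0.23 ± 0.07, was not called without the 3 libraries with markers of another fraction. Setd4 was the lowest of the 34 genes per kb of exon, at 2.16 CPM per kb, and rose by 0.54 ± 0.08. Setd8, the enzyme for single methylation of histone H4 at lysine 20, averaged 44.9 ± 5.98 CPM in male PGCs and 68.7 ± 5.38 in female PGCs, below the 100 ± 8.86 and 93.3 ± 7.01 of soma. The fall of Setd8 in females, -0.34 ± 0.09, was no longer called after median centring, at -0.14 (limma, adjusted p = 0.16).

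Both flavin-dependent demethylases were higher in PGCs, and they differed in which sex was on top. Kdm1a (chromosome 4, 136550540 to 136602723, minus strand), also called LSD1, removes methyl groups from lysine 4 within the CoREST repressor complex and was the second-highest of the 34 genes per kb of exon. It stood at 419, 369 and 379 CPM in male PGCs and 208, 209 and 221 CPM in female PGCs, against 144, 147 and 142 CPM in male soma and 147, 143 and 158 CPM in female soma. The groups were ordered male PGC, female PGC, soma without overlap. The rise was 1.24 ± 0.06 in males and 0.40 ± 0.06 in females, and the difference between female and male PGCs was -0.82 ± 0.06 (limma, adjusted p = 5.2e-08).

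Kdm1b (chromosome 13, 47043499 to 47085279, plus strand), also called LSD2, is needed in mouse oocytes for the DNA methylation of several imprinted genes. Its values were 101, 85.1 and 98.7 CPM in male PGCs and 165, 142 and 136 CPM in female PGCs, against 26.8, 28.7 and 26.6 CPM in male soma and 31.5, 34.2 and 25.9 CPM in female soma. Here the female PGCs were on top and the 2 kinds of soma overlapped. The log2 change from soma was 1.60 ± 0.06 averaged over the sexes (limma, adjusted p = 1.1e-11), 3.46-fold more CPM in males and 4.84-fold more in females. Female PGCs were above male PGCs by 0.39 ± 0.09 (limma, adjusted p = 0.0015). The gene Dek overlaps 9.19% of its exonic length on the other strand.

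The demethylases of lysines 36 and 9 that carry a JmjC domain (7 Kdm2, Kdm3 and Kdm4 genes) gave 5 rises and 2 falls (all genes 41.4% and 45.3%). Kdm2b (chromosome 5, 122870665 to 122989823, minus strand) binds unmethylated CpG islands and recruits a Polycomb complex there. It held 243, 230 and 235 CPM in male PGCs, 371, 381 and 356 CPM in female PGCs, 73.7, 77.8 and 67.4 CPM in male soma and 108, 110 and 126 CPM in female soma. All 4 groups were apart, and the female library values exceeded the male ones in both fractions. Kdm2b rose by 1.38 ± 0.05 (limma, adjusted p = 3.2e-12), with 3.24-fold and 3.22-fold more CPM in male and female PGCs. The female excess was 0.40 ± 0.07 in PGCs (limma, adjusted p = 0.00012) and 0.48 ± 0.07 in soma (limma, adjusted p = 0.00014). Its relative Kdm2a rose by less, 0.40 ± 0.06.

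Kdm3a (chromosome 6, 71588972 to 71632990, minus strand) removes methyl groups from lysine 9 and is known in mouse gonadal soma for its part in switching on the testis-determining gene. Male PGCs held 285, 183 and 251 CPM and male soma 85.8, 123 and 122 CPM, while female PGCs held 174, 173 and 161 CPM and female soma 197, 170 and 184 CPM. Male soma was the lowest group and the 2 female groups overlapped. The change from soma was 0.98 ± 0.12 in males (limma, adjusted p = 3.9e-06) and -0.09 ± 0.12 in females (limma, adjusted p = 0.49). Female soma was above male soma by 0.57 ± 0.12 (limma, adjusted p = 0.0038), and erythroid markers were also higher in female soma, as given above; their part in this difference was not tested. Kdm3b, the other lysine 9 enzyme of this branch, rose by 0.51 ± 0.06 averaged over the sexes. Its female rise of 0.33 ± 0.08 was not called without the 3 libraries with markers of another fraction, and 24.6% of its exonic length is overlapped by a gene on the opposite strand.

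The Kdm4 enzymes, which remove trimethylation of lysines 9 and 36, did not move as one. Kdm4a (chromosome 4, 118136957 to 118180043, minus strand) was at 75.7, 78.0 and 76.3 CPM in male PGCs and 53.3, 63.8 and 70.8 CPM in female PGCs, against 164, 161 and 162 CPM in male soma and 162, 167 and 174 CPM in female soma. Every soma library lay above every PGC library, with a log2 change of -0.93 ± 0.05 (limma, adjusted p = 3.6e-10). Kdm4b (chromosome 17, 56326062 to 56402870, plus strand) held 50.9, 44.2 and 47.0 CPM in male PGCs, 53.3, 46.6 and 39.4 CPM in female PGCs, 107, 92.5 and 102 CPM in male soma and 85.6, 79.5 and 82.0 CPM in female soma. PGCs of the 2 sexes overlapped and lay below soma, by -0.69 ± 0.06 (limma, adjusted p = 7.7e-08). Kdm4c averaged 37.6 ± 3.54 CPM in male PGCs and between 24.8 and 29.5 CPM in the other groups, and rose in males only by the test, 0.51 ± 0.09 against 0.04 ± 0.09 in females.

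Among the demethylases of lysines 4 and 27, the 2 Kdm5 genes rose and Kdm6b fell. Kdm5a (chromosome 6, 120364124 to 120444574, plus strand) and Kdm5b remove trimethylation of lysine 4. Kdm5a reached 863, 788 and 693 CPM in female PGCs, against 303, 276 and 357 CPM in male PGCs, 126, 142 and 134 CPM in male soma and 131, 191 and 164 CPM in female soma. Female PGCs were in a range of their own, 2.50-fold above male PGCs in CPM. The log2 change between them was 0.96 ± 0.10 (limma, adjusted p = 2.1e-06), and that from soma to PGCs was 1.45 ± 0.07 averaged over the sexes (limma, adjusted p = 1.4e-10). Kdm5b went the other way between the sexes and by little, from 572 ± 60.5 CPM in male to 497 ± 68.9 in female PGCs. That difference, -0.29 ± 0.09, was lost without male PGC replicate 1 or without female PGC replicate 3.

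Kdm6b (chromosome 11, 69398508 to 69413675, minus strand), also called JMJD3, removes the repressive methylation of lysine 27. It was at 108, 84.4 and 122 CPM in male PGCs and 42.6, 57.2 and 37.5 CPM in female PGCs, against 210, 225 and 220 CPM in male soma and 217, 173 and 209 CPM in female soma. Both kinds of soma overlapped at the top and female PGCs were at the bottom. The fall from soma was -1.21 ± 0.09 averaged over the sexes (limma, adjusted p = 6.1e-09), -0.76 ± 0.12 in males and -1.66 ± 0.12 in females. Female PGCs were below male PGCs by -1.03 ± 0.12 (limma, adjusted p = 5.5e-06). Kdm7a, which acts on lysines 9 and 27, was low in male PGCs alone, at 29.3 ± 3.39 CPM (SD, n = 3), against 61.2 ± 10.6 in female PGCs, 71.0 ± 10.2 in male soma and 77.8 ± 21.4 in female soma.

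Read across the whole set, female and male PGCs differed in 26 of the 34 genes. In female PGCs 11 genes were higher and 15 lower (limma, adjusted p under 0.05), so the share of lower calls in the 34 genes was 44.1% against 32.5% of all genes, and that of higher calls 32.4% against 32.8%. The genes higher in female PGCs were Kdm1b, Kdm2a, Kdm2b, Kdm5a, Kdm7a, Kmt2a, Kmt2c, Kmt2e, Setd2, Setd6 and Setd8. Without the 3 libraries with markers of another fraction 24 of the 26 calls were kept in their direction, and the calls of Kdm5b and Setd6 were lost. Without female PGC replicate 2 those of Kdm2a and Setd6 were lost. Between female and male soma 4 genes were higher, Kdm2b, Kdm3a, Kmt2a and Setd7, and 0 were lower by limma, against 13.3% and 11.0% of all genes. At an unadjusted p under 0.05, 9 genes differed between the somas, and voom also called 4 higher and 0 lower, against 12.1% and 11.5% of all genes. The call of Kmt2a, 0.31 ± 0.10, was lost without any one of 4 soma libraries: male soma replicate 1 or 3 or female soma replicate 1 or 3. It was also lost without the 3 libraries with markers of another fraction.

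The size of the change from soma to PGCs itself differed between the sexes in 21 genes, 6 with a larger and 15 with a smaller value in females, against 27.9% and 28.9% of all genes. The 3 largest differences were those of Setd7, Prmt1 (-1.29 ± 0.11) and Prmt5 (-1.10 ± 0.12). All 6 arginine methyltransferases that were lower in female PGCs were among the 15. Without the 3 libraries with markers of another fraction 15 of the 21 calls were kept, and those of Kdm4c, Kdm5b, Kmt2a, Prmt2, Setd2 and Setd8 were lost. Without female PGC replicate 2 those of Prmt2 and Setd2 were lost.

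**Figure D3:**
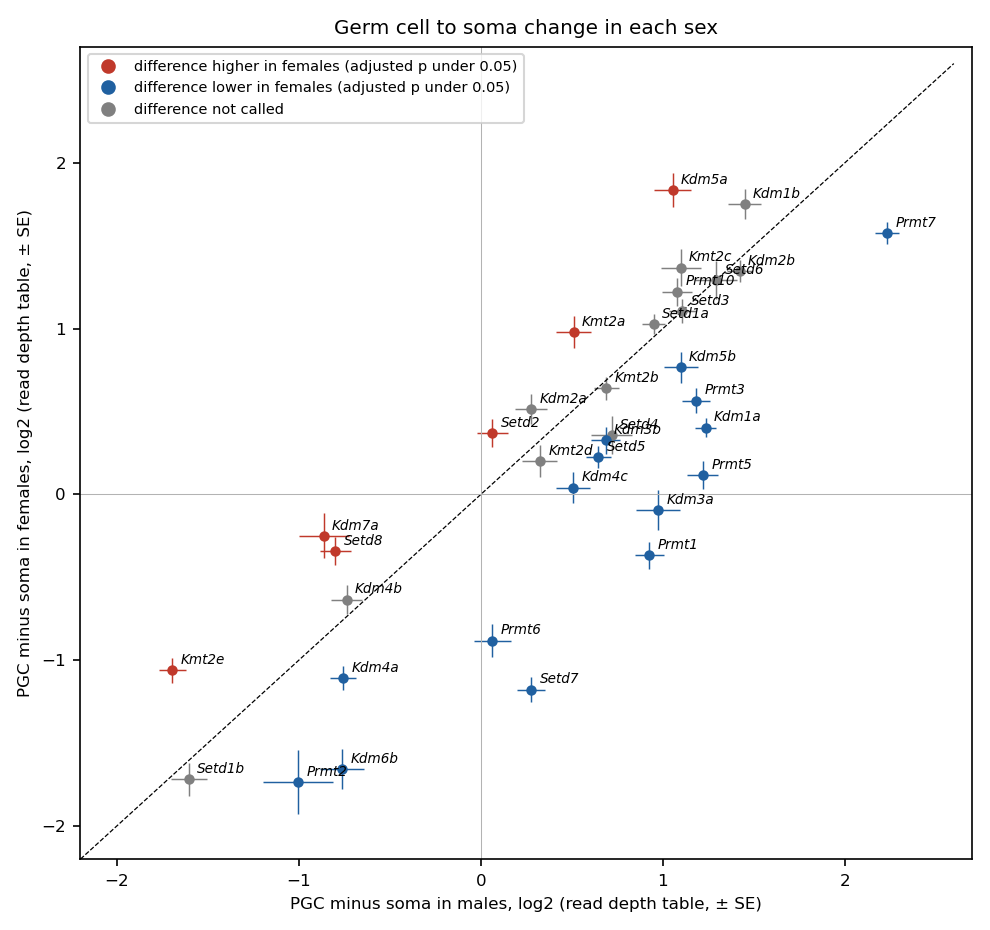
Log2 change from soma to PGCs in males (x axis) and in females (y axis) for the 34 genes, with SE, and the dashed line where both are equal. Red points have a higher and blue points a lower change in females at an adjusted p under 0.05: Prmt1, Prmt5, Prmt6 and Setd7 lie far below the line, and Kdm5a and Kmt2e above it.

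Exonic length ran along with the difference between female and male PGCs. The 11 genes that were higher in female PGCs had a median exonic length of 10.8 kb, the 15 that were lower 5.996 kb and the 8 not called 6.42 kb. Across the 34 genes, Spearman's rho between exonic length and the log2 change was 0.44, and across 12774 genes with a length it was 0.11. Genes of one table share libraries and are not independent, so no p is given. The median change over all genes ran from -0.06 in the shortest 25% of genes to 0.11 in the longest 25%. The arginine methyltransferase genes ran from 3.38 to 6.12 kb, between the limits of the shortest and the longest 25% of all genes (2.94 and 7.03 kb). In the 25% bins between these limits the median changes of all genes were -0.01 and 0.02. Of the 7 genes 6, all but Prmt10 (0.10), had a change below 0. After the trend with length was removed from each library, 25 of the 26 calls were kept and that of Kdm2a was lost. The part of length in the remaining pattern was not tested.

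**Figure D4:**
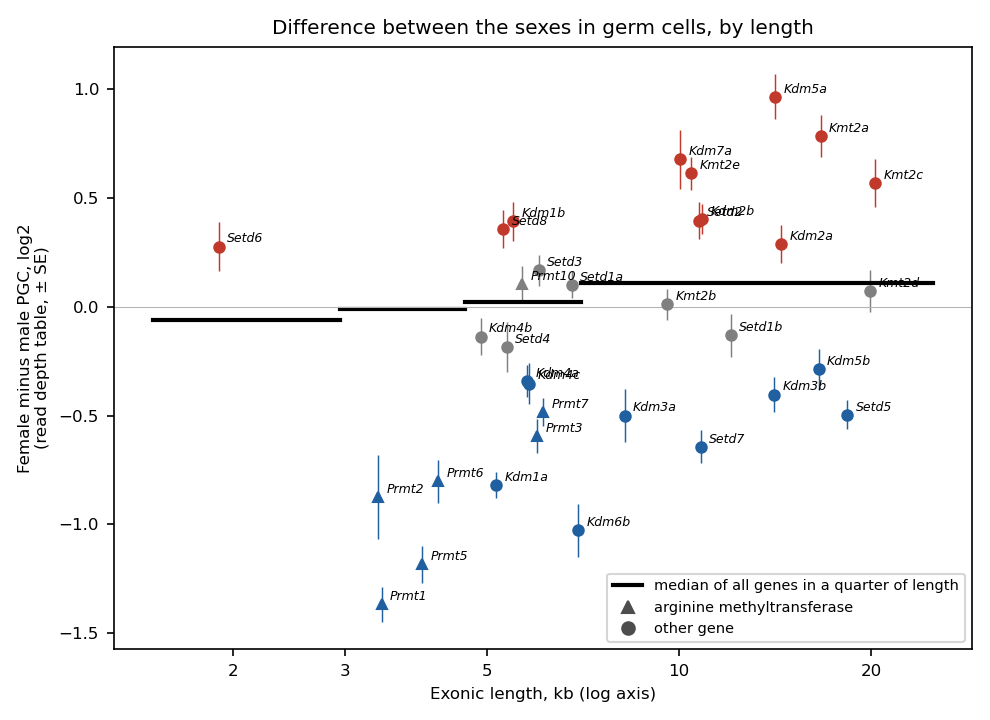
Log2 change from male to female PGCs (y axis, with SE) against exonic length in kb (x axis, log scale) for the 34 genes. Triangles are arginine methyltransferases, red, blue and grey mark genes called higher, called lower and not called in female PGCs, and black bars give the median of all genes in each 25% bin of length, from -0.06 to 0.11.

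Per cell, nearly all of these enzymes were more abundant in PGCs. In the table normalized to cell number 31 of the 34 genes were higher and 0 lower when averaged over the sexes by limma, against 74.3% and 16.5% of all genes. At an unadjusted p under 0.05 the number called in either direction was also 31, and voom called 31 higher and 0 lower, against 74.5% and 16.1% of all genes. The call of Kdm6b was marginal (limma, adjusted p = 0.040). It was lost without the 3 libraries with markers of another fraction and without the intensity trend. Leaving out any one of several single libraries also removed it: male PGC replicate 1 or 3, male soma replicate 1 or 2, female PGC replicate 1 or 2, or female soma replicate 1 or 2. The median log2 change was 2.57 over the 34 genes and 1.89 over all genes. These changes share the error of each library's scaling factor, which puts most standard errors near 0.20, so the calls of different genes are not independent. The fit pooled the spread over all genes as though their errors were independent. The p-values per cell are therefore too small, and all counts of calls per cell given here may be too high.

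The 3 genes without a call per cell were those with the largest falls per read. Kmt2e had a change of 0.20 ± 0.20, Prmt2 of 0.04 ± 0.24 and Setd1b of -0.22 ± 0.21. On the log2 scale per cell, Setd1b was at 5.53, 5.61 and 5.96 in male PGCs and 5.61, 5.50 and 5.59 in female PGCs, against 6.02, 5.98 and 6.89 in male soma and 5.46, 5.01 and 5.73 in female soma. The values of the 4 groups lay close, apart from male soma replicate 3, which was the highest male soma library for the median over all genes as well. Prmt7 stood at the other end, at 8.93, 8.86 and 8.84 in male PGCs, 8.31, 8.26 and 8.43 in female PGCs, 4.15, 4.20 and 5.19 in male soma and 3.81, 3.75 and 4.06 in female soma. Its change was 4.41 ± 0.20, and the PGC and soma libraries lay far apart.

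In males 26 genes were higher and 1, Kmt2e, was lower per cell, against 64.0% and 19.8% of all genes. In females 31 were higher and 0 lower by limma, against 77.2% and 11.5%; at an unadjusted p under 0.05 the number called was also 31, and voom called 31 and 0, against 77.4% and 10.9%. The female calls of Kdm4a, Kmt2e, Prmt6 and Setd7 were lost without the 3 libraries. Between female and male PGCs 5 genes were higher and 8 lower per cell, against 24.3% and 17.7%. The 8 were Kdm1a, Kdm6b, Setd7 and 5 arginine methyltransferases, Prmt1, Prmt2, Prmt3, Prmt5 and Prmt6. These per-cell counts between the sexes depended on male soma replicate 3, which enters this comparison only through the shared estimate of the spread. Without that library 10 genes were higher and 14 lower. Without the 3 libraries with markers of another fraction they were 3 and 4, with the calls of Kdm1a, Kmt2c, Kmt2e, Prmt2, Prmt3 and Setd7 lost, and the male count of lower genes was 0. Without female PGC replicate 2 those of Kmt2c, Prmt3 and Setd7 were lost.

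**Figure D5:**
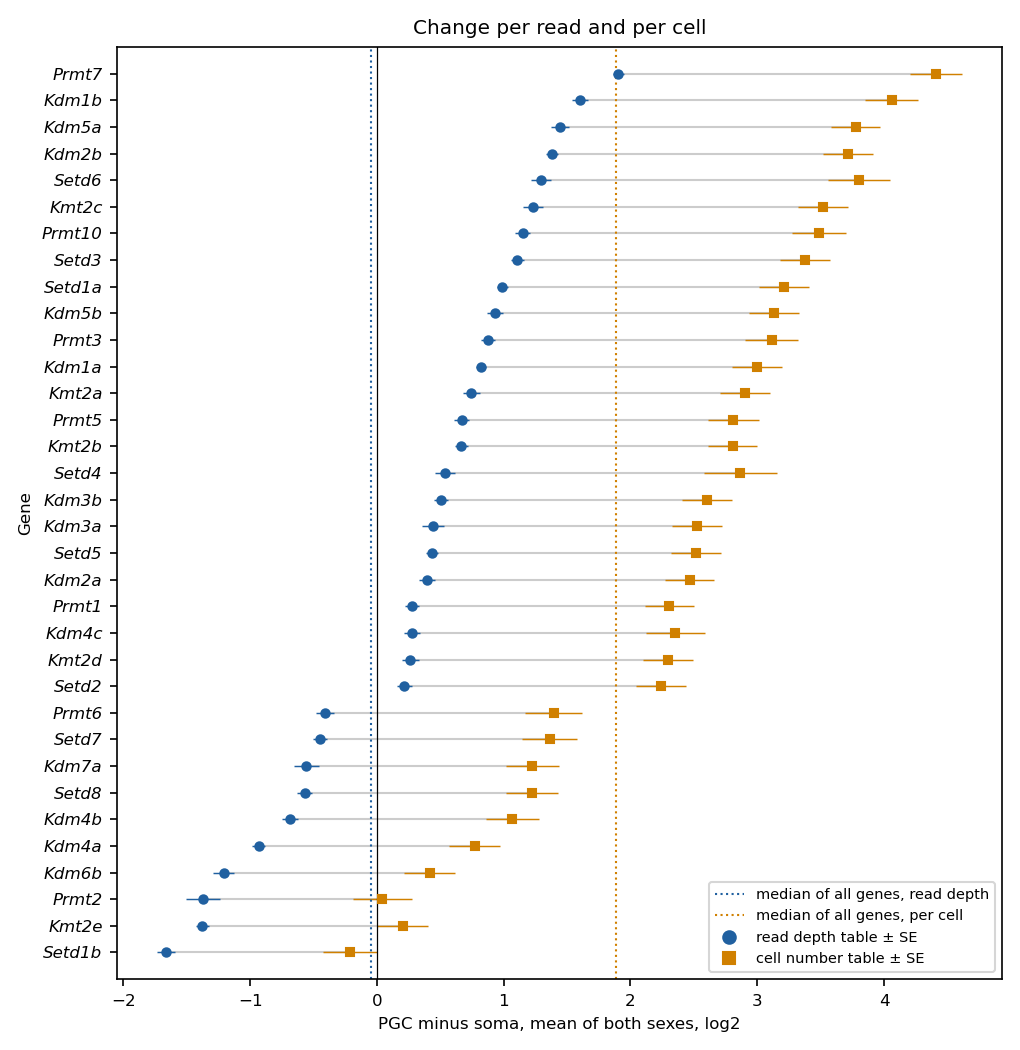
Log2 change from soma to PGCs averaged over the sexes for the 34 genes, in the table normalized to read depth (blue circles) and in that normalized to cell number (orange squares), with SE. Dotted lines mark the median of all genes, -0.04 per read and 1.89 per cell: Prmt7 has the largest change on both scales, and Prmt2, Kmt2e and Setd1b lie near 0 per cell.

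Partners of the enzymes were counted from lists of known genes. Rises and falls are from soma to PGCs averaged over the sexes, where 41.4% of all genes rose and 45.3% fell. Quantile normalization moved the median of all genes to 0.16, by about as much as median centring. The 4 measured cofactors of Prmt5 gave 3 rises and 1 fall, and 0 were higher and 3 lower in female than in male PGCs, where 32.8% and 32.5% of all genes were. Wdr77, the obligate partner in the methylosome, had 279 CPM in male and 169 CPM in female PGCs, against 108 and 119 CPM in soma, a log2 change between PGCs of -0.71 ± 0.08 (limma, adjusted p = 2.0e-06). The substrate adaptor Clns1a changed by -0.43 ± 0.07. The adaptor Riok1, named here after its value was seen, changed by -0.90 ± 0.08. Coprs, which directs Prmt5 to histones, did not differ between PGCs by the test (-0.05 ± 0.11) and was high in both, 83.9 CPM in male and 89.0 CPM in female PGCs against 8.62 and 11.5 CPM in soma. The genes listed as other arginine methyltransferases and measured, Carm1, Fbxo11 and Ndufaf7, gave 0 rises and 1 fall, that of Fbxo11 at -0.16 ± 0.06. The place of Fbxo11 among these enzymes was taken from the list and was not tested. The count of these 3 turned with the scaling: 2 rises and 0 falls after median centring, 1 and 2 after quantile normalization, and 1 and 1 with voom.

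The 15 listed subunits of the SET1 and MLL complexes gave 9 rises and 1 fall, against 41.4% and 45.3% of all genes. After median centring the counts were 13 and 0, and after quantile normalization 9 and 3. Ash2l and Wdr5, core subunits that the catalytic enzymes need for activity, rose by 1.38 ± 0.06 and 1.31 ± 0.04. Between the PGCs 4 subunits were higher and 10 lower in females, against 32.8% and 32.5% of all genes, and the median change was -0.35, against 0.09 over the 8 lysine 4 methyltransferases. Ash2l was at 437 CPM in male and 248 CPM in female PGCs, Hcfc1 at 633 and 870 CPM.

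Lysine methyltransferases with other names gave 21 rises and 3 falls among 25 measured, against 41.4% and 45.3% of all genes, and 16 rises and 4 falls after quantile normalization. Setdb1, an enzyme for lysine 9 that silences retrotransposons, was at 292 CPM in male and 474 CPM in female PGCs, against 130 and 156 CPM in soma. The germ cell determinants Prdm14 and Prdm1, which carry a SET-related domain, were the most changed of the list, by 3.97 ± 0.18 and 2.47 ± 0.10. Of 11 other JmjC and related genes 7 rose and 2 fell. Phf2, a lysine 9 demethylase, had 16.1 and 21.7 CPM in male and female PGCs against 139 and 126 CPM in soma, while Jarid2, a Polycomb partner without demethylase activity, rose by 1.20 ± 0.04.

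Partners of Kdm1a in the CoREST complex gave 5 rises and 4 falls among 11, close to the shares of all genes (41.4% and 45.3%). After median centring the counts were 7 and 3. The deacetylases Hdac1 and Hdac2 rose by 0.52 ± 0.06 and 0.71 ± 0.04, while the corepressor Rcor3 and the subunit Hmg20b fell by 2.38 and 1.68 on the log2 scale. Enzymes that supply the methyl donor gave 7 rises and 1 fall among 9, and 6 and 2 after quantile normalization: methionine synthase, Mtr, rose by 1.42 ± 0.05. JmjC demethylases need alpha-ketoglutarate and are inhibited by succinate, fumarate and 2-hydroxyglutarate. Enzymes that make or use these metabolites gave 7 rises and 3 falls among 11, and the median change was 0.46 on the log2 scale. Sdha, a subunit of succinate dehydrogenase, rose by 0.59 ± 0.04. The 3 falls were those of Idh1, Idh2 and Idh3b, all isocitrate dehydrogenase genes, while another of them, Idh3g, rose by 0.73 ± 0.04; Idh3b and Idh3g are named here after their values were seen. Idh2 was at 42.5 CPM in male and 76.3 CPM in female PGCs against 373 and 299 CPM in soma, and Idh1 at 49.7 and 90.9 CPM against 274 and 135 CPM.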

How the data were processed

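The members and gene lists were chosen with earlier results of these data known. The authors deposited log2 expression values for 12845 genes in 2 tables, one read here as normalized to cell number and one normalized to read depth. The submitters' processing notes name the build mm10 and the tools limma 3.28.14, edgeR 3.14.0, DESeq2 1.12.3, HTSeq 0.6.1p1, TopHat2 2.0.9, Trim Galore 0.4.0 and R 3.3.0. The sources used here do not give their roles, the annotation, the strand setting, the gene filter or the transform of the read depth table.

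Reads were recovered from the cell number table, whose deposited log2 values came out as whole reads for 100% of genes in each library within 0.001, and gave the CPM. Genes below 5.07 CPM in their third-highest library were not analysed here. No replicate pair agreed within sampling noise: chi-square over its degrees of freedom ran from 5.43 to 30.4. The labels do not say that replicates came from separate embryos, so p-values measure the spread between libraries, which may be technical.

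The deposited log2 values of all genes entered limma 3.58.1 (R 4.3.3), with 4 group means over 12 libraries and a variance trend on intensity. Benjamini-Hochberg adjusted p-values over the whole table were read at 0.05. The comparisons within a sex share their libraries with those of the mean and of the difference. The sex comparisons share PGC or soma libraries with them too. Alternatives were each library left out, the lowest 25% of genes left out, median centring, quantile normalization, no trend, robust variance, array weights, a replicate block, voom on the recovered reads, the other table and a log2 fold change of at least 1. Removal of the length trend and leaving out 3 libraries with markers of another fraction were chosen after seeing the data. The pipeline was tested on simulated data. Positions and exonic lengths came from GENCODE vM21 (GRCm38), with 2 members found by an older symbol, and promoters from RefSeq.

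Full values are given for the 6 largest rises and 6 largest falls from soma to PGCs without overlap within a sex, the 5 and 3 largest differences between PGCs and between somas, the 3 largest differences of change, and the 3 highest levels per kb. From each partner list the 2 highest and the 2 most changed genes could be named. Some genes that met these rules are not reported here. The other software was numpy 2.4.6, pandas 2.3.3, matplotlib 3.10.9 and Python 3.11.15.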

Additional observations from a re-analysis of the deposited data

Results flagged for a closer look

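The change from soma to PGCs differed between females and males in 21 of the 34 genes, by limma's test of the difference itself on the read depth table (adjusted p under 0.05 over all genes). Of these, 6 were higher and 15 lower in females, where 27.9% of all genes were higher and 28.9% lower. Negative values mean a lower PGC to soma change in females. Among arginine methyltransferases the differences were -1.29 for Prmt1, -1.10 for Prmt5, -0.95 for Prmt6, -0.73 for Prmt2, -0.66 for Prmt7 and -0.62 for Prmt3, on the log2 scale. Lysine methyltransferases gave -1.46 for Setd7 and -0.42 for Setd5, and positive values of 0.64 for Kmt2e, 0.47 for Kmt2a, 0.46 for Setd8 and 0.31 for Setd2. Demethylases gave -1.07 for Kdm3a, -0.90 for Kdm6b, -0.83 for Kdm1a, -0.47 for Kdm4c, -0.36 for Kdm3b, -0.35 for Kdm4a and -0.33 for Kdm5b, with 0.78 for Kdm5a and 0.61 for Kdm7a on the other side.

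The calls of Setd2, Kdm5b and Prmt2 were the least firm of these, with adjusted p-values of 0.041, 0.043 and 0.034 in limma, and each was lost in several of the fits that leave out 1 library. Prmt2 and Kdm5b were also not called with voom.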

How the results depend on the processing

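With a log2 fold change of at least 1 required, the counts fell to 8 higher and 4 lower (mean of both sexes, per read), 12 and 3 (males), 9 and 6 (females), 0 and 3 (female against male PGC), 0 higher (soma) and 0 and 4 (difference between the sexes). Per cell they were 0 lower in males, and 2 and 5 between the PGCs. Shares of all genes are not given beside the counts in this section, so the counts alone do not set these genes apart from others.

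In the other deposited table, the per-read counts became 0 lower (mean), 1 lower (males), 31 and 0 (females), 5 and 8 (between PGCs), 0 and 26 (soma) and 13 and 1 (difference). The per-cell counts became 10 lower (mean), 8 lower (males), 19 and 10 (females) and 11 and 15 (between PGCs). Per cell, the median change of all genes was -0.86 between the somas and 1.89 averaged over the sexes. The other table is on a per-cell rather than per-read scale, or the reverse. In it the sign turned for Kmt2e (0.20), Prmt2 (0.044), Kdm6b (0.42), Kdm4a (0.77), Kdm4b (1.07), Kdm7a (1.23), Prmt6 (1.40), Setd7 (1.36) and Setd8 (1.22) from soma to PGCs averaged over the sexes, and for Kdm3a (-0.14) and Kdm2b (-0.25) between the somas.

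Median centring removes the shift per cell and gave 10 lower (mean), 8 (males), 9 (females) and 10 and 15 (between PGCs). Quantile normalization gave 10, 8, 18 higher and 10 lower, and 13 and 14, and 8 higher per read in soma. The 1 gene lower per cell in males became 0 without the intensity trend and without the 3 libraries with markers of another fraction, and 2 with voom and with the replicate block. Array weights gave 1 lower in soma and 11 and 15 between PGCs per cell. Without the 3 libraries that last pair was 3 and 4. For these changes the cause was not tested.

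Leaving out 1 library moved the count of genes lower per cell in males between 0 and 2, lower in female soma per read between 0 and 1, and, between the PGCs per cell, higher between 2 and 10 and lower between 5 and 14. Each extreme of 10 and 14 came from leaving out male soma replicate 3. A group left with 2 libraries was still fitted with the shared spread.

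Deviations of same-numbered PGC and soma libraries correlated per read at 0.016, 0.038 and 0.051 in males and -0.071, 0.059 and 0.071 in females. For libraries of different numbers the values ran from -0.075 to 0.043 in males and from -0.109 to 0.067 in females. With 3 libraries a group these values cannot show whether equal replicate numbers share a source, and the labels do not say. The replicate block gave 1 gene lower in soma and lost the calls of Setd6 between PGCs and of Kdm5b in the difference. Depth limits low genes such as Setd4, Prmt2 and Setd6 most.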
